A study of Mus musculus with 8 samples.

Results

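The barcodes described here were rich in insulin mRNA and carried an unusually large share of mitochondrially encoded RNA. They came from single-cell libraries of mouse islets. Members were chosen by their UMI counts (unique molecular identifiers, 1 per captured RNA molecule): at least 200 detected genes, at least 2000 UMIs, more than 10% of UMIs from the mitochondrial (mt) genome, at least 95% of hormone UMIs (*Ins1*, *Ins2*, *Gcg*, *Sst*, *Ppy* and *Pyy*) from the 2 insulin genes, and at least 5% of all UMIs from insulin. The rule found 1183 members among 17426 barcodes (6.79%). Barcodes that met the same rule at 10% mt or less numbered 6927 and served as the comparator within each library, so members were 14.6% of all insulin-rich barcodes. An upper limit on mt share is a common filter in single-cell work and removes such barcodes.

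The islets came from C57BL/6 mice (C57BL6/J in the methods), were pooled within a replicate, divided over 4 culture conditions for 18 h as intact islets, and then dispersed into single cells with trypsin. No allele or transgene was involved. The conditions were untreated, cytokines (interleukin-1β and interferon-γ), the same cytokines together with NMMA (NG-monomethyl-L-arginine, an inhibitor of nitric oxide synthase), and NMMA alone. Each condition had 2 libraries, 1 per replicate, and a replicate number marked 1 islet pool. Library totals ran from 26549922 to 50731370 UMIs.

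The β-cell makes, stores and secretes insulin in response to glucose, and it relies on mitochondrial respiration to couple glucose to secretion. Mitochondrial DNA encodes a small set of respiratory chain subunits, whose mRNAs stay inside the organelle. The other subunits, and the proteins of both kinds of ribosome, are encoded in the nucleus. Some long noncoding RNAs, such as *Malat1* and *Neat1*, are retained in the nucleus, whereas mRNAs of secreted proteins are translated at the surface of the endoplasmic reticulum (ER). In mouse β-cells interleukin-1β and interferon-γ together induce nitric oxide production through *Nos2*, which encodes inducible nitric oxide synthase. Nitric oxide inhibits mitochondrial respiration.

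Mt share, insulin share, UMI number and gene number were selected on by the rule, so their values are a description. Mt share in members ran from 10.0% to 77.6% with a median of 21.9%, against a median of 4.02% in the comparator. Of the members, 538 lay from 10 to 20% mt and 645 above 20%. The median member had 5162 UMIs and 1165 detected genes, and the median comparator barcode had 26250 UMIs and 4348 genes. Members with fewer than 5000 UMIs numbered 573, and 278 had 10000 or more. Insulin accounted for a median of 26.2% of UMIs in members and 37.6% in the comparator, or 34.8% and 39.4% once mt UMIs were taken out. In 1238 barcodes led by another hormone and at 10% mt or less, the median insulin share was 0.373% (median depth 16653.5 UMIs). In the 212 such barcodes above 10% mt it was 0.965% (median depth 4572 UMIs). Both groups were set apart from members by hormone, so these values only show the level of insulin RNA in barcodes led by another hormone.

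Other markers of β-cells were present. Summed over the 1183 members, *Iapp* (islet amyloid polypeptide, packed with insulin) had 272679 UMIs, *Slc30a8* (the granule zinc transporter) 2418, *Mafa* (an insulin gene transcription factor) 2316, *G6pc2* (islet glucose-6-phosphatase) 2225, *Nkx6-1* 1157, *Ucn3* (urocortin 3) 923, *Slc2a2* (the glucose transporter GLUT2) 720, and *Pdx1* 669. Defining markers of other cell types were at or near 0. The α-cell factors *Irx1* and *Irx2* had 2 and 6 UMIs. The δ-cell factor *Hhex* had 5, and *Ghsr* and *Lepr* had 0. The macrophage genes *Csf1r* and *Adgre1* had 0 UMIs and *Lyz2* had 5, the endothelial genes *Kdr* and *Cdh5* had 0 and 1, the ductal genes *Sox9* and *Cftr* had 0, and the T-cell gene *Cd3e* had 0. Other listed markers had UMIs, led by *Tmem27* (3189), *Krt7* (1193), *Ttr* (962) and *C1qa* (691), and all 12 acinar markers were found, with 512 UMIs for the chymotrypsinogen gene *Ctrb1*. The 8 β-cell markers, of which *Iapp* was the most abundant, summed to a mean of 5.88% of non-mt, non-hormone UMIs in members. In the comparator they summed to 7.84%, and they were higher in members in 0 of 8 libraries. The α-cell list summed to 0.0988% in members and 0.0770% in the comparator, higher in members in 8 of 8 libraries. The ductal list had 0.0393% and 0.0489%, the acinar list 0.0180% and 0.0189%, and the macrophage list 0.0174% and 0.0189%. The acinar list summed to between 0 and 0.0720% of non-mt, non-hormone UMIs per library in members and between 0.000126% and 0.0805% in the comparator. One member (0.0845%) and 163 comparator barcodes (2.35%) were called doublets. Of 34 barcode sequences found in more than 1 library, 3 were a member in 1 library and 0 were members in more than 1.

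To ask what distinguished members from comparator β-cells of the same library, UMIs were summed by class within each library. The 13 mt genes and 6 hormone genes were left out, and the 2 sums of each library were compared with edgeR's quasi-likelihood test with the library as a block. Values are counts per 1000000 (CPM) of the remaining UMIs. A gene was called at a Benjamini-Hochberg adjusted p below 0.05. Gene lists were chosen with earlier results of these data known, so counts by list are a description. The sums held 126297 to 1126503 UMIs in members and 9089146 to 20441762 in the comparator. The median barcode held 3896 non-mt and 1341 mt UMIs in members and 25084 non-mt and 1067 mt UMIs in the comparator, so the classes lay much further apart in non-mt than in mt UMIs. These numbers were also selected on, and RNA content and capture efficiency per barcode cannot be told apart. All CPM values are likewise relative to the other non-mt RNAs of the sum.

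Messenger RNAs of ribosomes and of the respiratory chain were lower in members, whereas nuclear noncoding RNAs and several mRNAs of ER chaperones and secretory granules were higher. Of 11366 genes tested, 2352 were higher (20.7%) and 2389 lower (21.0%) in members, and 2452 of the 4741 called genes had the same sign in all 8 libraries. The median log2 difference over all genes was 0.02. The share of all tested genes without overlap between the classes is not given here. A lack of overlap stated below therefore only describes the values of the gene or list named. Scaling by total UMIs in place of TMM moved the median log2 difference over all genes to 0.16 and the split to 3297 higher and 1646 lower.

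Every one of the 82 tested mRNAs of cytosolic ribosomal proteins was called lower in members, with a median log2 difference of −1.08. Summed as a list, they made up 5.37 to 10.6% of non-mt, non-hormone UMIs in the 8 member sums (8.09% ± 2.14, SD, n = 8 libraries) and 13.2 to 18.9% in the comparator sums (15.1% ± 1.83, SD, n = 8 libraries), so the ranges did not overlap. *Rps3a1*, a small-subunit protein encoded at chr3:86137940-86142702 (GRCm38), had 539 CPM in the lowest member sum, a median of 1222 and a highest value of 1965. In the comparator its lowest, median and highest values were 2204, 2762 and 4360 CPM. The log2 difference of *Rps3a1* was −1.34 (SE 0.18, adjusted p = 4.38e-08, edgeR). *Rps6*, *Rps14*, *Rps16*, *Rpl17* and *Rpl10* followed with log2 differences of −1.25 to −1.27. The list kept all 82 calls when UMIs were scaled by their total (median −0.92), when each barcode was thinned to 1500 non-mt UMIs (−1.47), and when both classes were held to barcodes of 10000 non-mt UMIs or fewer (−1.77), the last of which was added after seeing the data.

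**Figure D1:**
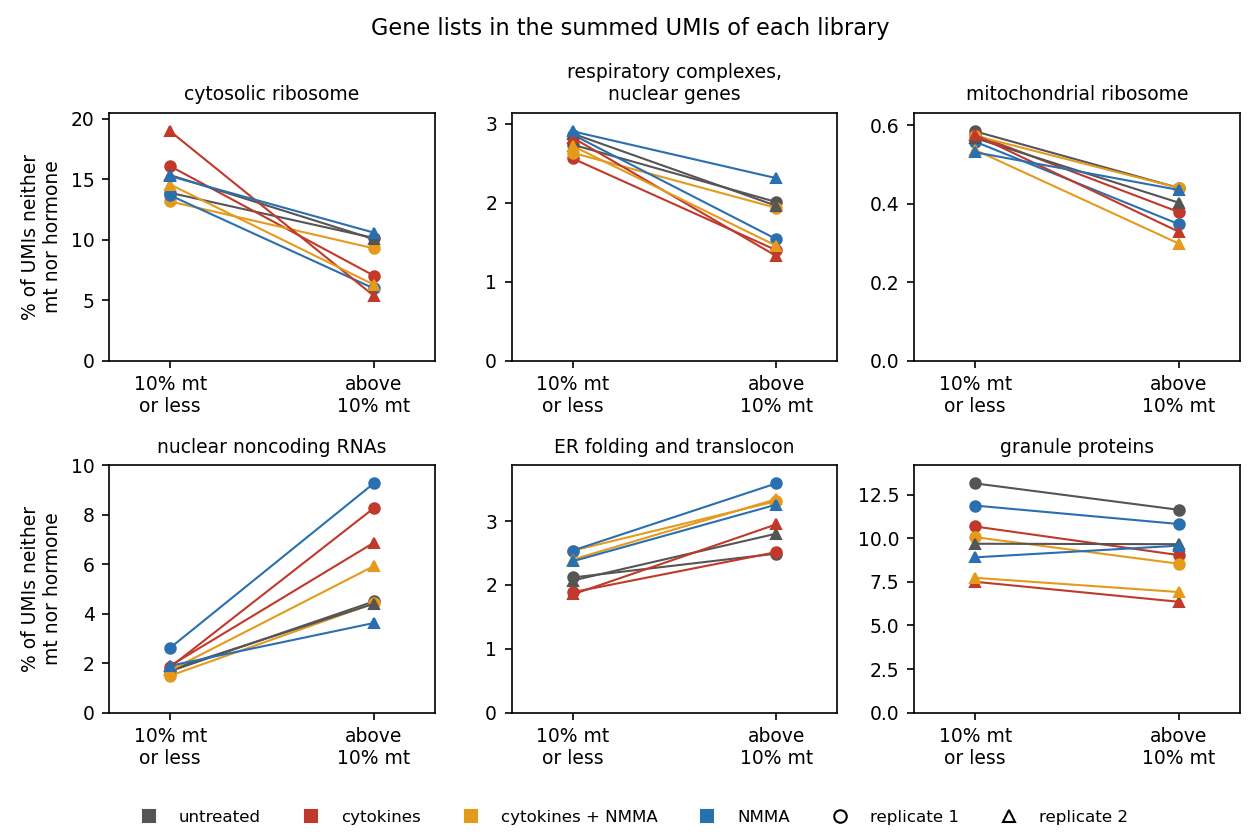
Sum of 6 gene lists in each library, as a percentage of UMIs that are neither mitochondrial nor hormone, in insulin-rich barcodes at 10% mt or less (left of each panel) and above 10% mt (right). Each line joins the 2 classes of 1 library, colours give the condition and symbols the replicate. Ribosomal lines fell in all 8 libraries, from 13.2 to 18.9% down to 5.37 to 10.6%, and the lines of nuclear noncoding RNAs rose in all 8.

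Nuclear mRNAs of the respiratory complexes and of the mitochondrial ribosome were lower in members, relative to the other non-mt RNAs. The mt RNAs chose the members, so their direction is not compared with this result. Among nuclear genes of the respiratory complexes, 72 of 78 were lower and 0 higher (median −0.83), and the list summed to 1.74% ± 0.358 in members against 2.77% ± 0.124 in the comparator (SD, n = 8 libraries). *Cox5b*, a subunit of cytochrome c oxidase, was lower by a log2 difference of −1.14 (SE 0.13, adjusted p = 2.82e-10) with no overlap between the classes. *Cox8a*, another subunit of that complex, had 504, 699 and 873 CPM (lowest, median, highest) in members and 1114, 1282 and 1568 CPM in the comparator. *Cycs*, which encodes cytochrome c, was lower by −1.19 on the log2 scale. In the same way 56 of 75 mitochondrial ribosomal protein mRNAs were lower and 0 higher (median −0.61), among them *Mrps36* (−1.15) and *Mrps33* (−1.08).

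Other mitochondrial groups changed less uniformly. Of 29 import and chaperone genes, 17 were lower and 4 higher, with *Grpel1*, a partner of mitochondrial Hsp70, at −1.07, *Hspe1* (Hsp10) at −0.86 and *Timm44* at 0.53. Of 22 outer membrane, dynamics and mitophagy genes, 15 were lower, including *Fis1* (−1.03), *Vdac2* (−0.98) and *Bnip3* (−0.96), and 0 were higher. Citric acid cycle genes were lower in 11 of 18 cases, with *Mdh2* at −0.69. Genes that maintain and express mitochondrial DNA stood apart from these: 3 of 27 were higher and 4 lower, both shares below those of all genes. *Polg*, the mtDNA polymerase, was higher by 0.75. *Tefm*, the mitochondrial transcription elongation factor, was lower (−0.79), a call lost under 4 alternatives. *Lars2*, the mitochondrial leucyl-tRNA synthetase (chr9:123366927-123462666), was not on this list. It had the largest increase among genes of at least 50 CPM with the same sign in all libraries. Its level was 234, 894 and 5055 CPM (lowest, median, highest) in members against 69.9, 226 and 398 CPM in the comparator. The 2 ranges overlapped although the sign was the same in every library (log2 difference 2.37, SE 0.23, adjusted p = 2.61e-07).

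Glycolytic and antioxidant mRNAs were also lower. Of 14 glycolysis genes 11 were lower and 1 higher. *Gapdh* ranged from 411 to 1729 CPM around a median of 789 in members and from 1321 to 3130 around 1917 in the comparator, a log2 difference of −1.26. *Ldha*, which β-cells express at a low level, was lower by −1.51 and *Aldoa* by −0.87. Of 22 antioxidant genes 16 were lower and 1 was higher. *Prdx5* (peroxiredoxin 5) was at −1.27, *Gpx1* (glutathione peroxidase 1) at −1.11, *Sod2* (the mitochondrial superoxide dismutase) at −0.94 and *Mt1* (metallothionein 1) at −0.66, and the higher gene was *Txnip* (0.55), which binds and inhibits thioredoxin. Other large decreases were those of *Fabp5*, a fatty acid binding protein, with 7.14 to 57.1 CPM in members and 68.5 to 126 CPM in the comparator, and of *Fam162a* (−1.28), *Sh3bgrl3* (−1.30) and *Gng5* (−1.27).

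All 7 nuclear noncoding RNAs on the list were higher, with a median log2 difference of 1.32, and their sum was 5.91% ± 2.05 in members and 1.87% ± 0.335 in the comparator (SD, n = 8 libraries). *Malat1* (chr19:5795690-5802672) had a lowest, median and highest value of 30041, 44026 and 75037 CPM in members and of 13538, 15860 and 22625 CPM in the comparator. The classes did not overlap, and the log2 difference of *Malat1* was 1.47 (SE 0.23, adjusted p = 6.44e-07). *Meg3*, the maternally expressed imprinted noncoding RNA, was higher by 1.39, with 2337 to 5373 CPM against 994 to 1741 CPM. *Neat1*, the scaffold of nuclear paraspeckles, was higher by 1.15, *Ftx* by 0.98 and *Kcnq1ot1* by 0.94. The noncoding RNA *Mirg* (1.32) and *Snhg11* (1.37) were also among the largest increases. The annotation used here labels *Snhg11* protein-coding, and its call was lost for members from 10 to 20% mt. The 3 neighbouring loci *Gm26917* (chr17:39843013-39846341), *Gm42418* (chr17:39846958-39848788) and *AY036118* (chr17:39847113-39848035) were higher by 2.08, 1.57 and 1.33. *AY036118* lies antisense to and within *Gm42418*, so the values of these 2 genes are uncertain. What RNA the UMIs of the 3 loci came from was not tested. *Gm26917* and *Gm42418* were not on the list of nuclear noncoding RNAs. Other protein-coding genes among the largest increases were *Mlxipl*, the glucose-responsive transcription factor ChREBP (1.62), and *Insrr*, an insulin receptor relative (1.32). So was *Rgs11*, a regulator of G protein signalling with 85.1 to 174 CPM in members and 31.9 to 63.1 CPM in the comparator (1.33).

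Of 30 ER folding and translocon genes 16 were higher and 3 lower, and the list sum was higher in members in 8 of 8 libraries (3.03% ± 0.407 against 2.22% ± 0.277, SD, n = 8 libraries). *Hspa5*, the chaperone BiP, had 2245, 4923 and 6176 CPM in members and 1678, 2667 and 3278 CPM in the comparator, and was higher by 0.80 (SE 0.16, adjusted p = 7.50e-05). *Hsp90b1*, the ER member of the Hsp90 family, was higher by 0.59. Within the translocon the subunits differed in direction: *Sec61a1*, the pore subunit, was higher by 0.69 with no overlap (355 to 603 CPM against 181 to 335 CPM), whereas its small partners *Sec61b* (261 to 790 CPM against 932 to 1372 CPM, log2 difference −1.22) and *Sec61g* (−0.98) were lower. Of 17 granule proteins 11 were higher and 1 lower. *Chgb* and *Chga*, the granins, were higher by 0.64 and 0.53, and *Ptprn2*, a granule membrane protein, by 0.90. The calls of *Chgb* and *Chga* were lost under 1 and 6 alternatives. The granule list sum was nevertheless 9.06% in members and 9.94% in the comparator, and higher in members in 1 of 8 libraries. *Iapp*, its most abundant gene, was the one called lower (log2 difference −0.63, adjusted p = 0.0379, edgeR), a call lost under 7 alternatives.

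Genes of β-cell function were higher in 10 of 18 cases and lower in 2. *Abcc8*, the sulfonylurea receptor subunit of the ATP-sensitive potassium channel, had 766, 1053 and 1259 CPM in members and 306, 512 and 602 CPM in the comparator. Its log2 difference was 1.07 (SE 0.13, adjusted p = 1.94e-09) and the classes did not overlap. *Slc2a2* was higher by 0.51 and *Slc30a8* by 0.45. Of 15 β-cell transcription factors 4 were higher, with *Pax6* at 0.56, and 2 were lower, *Insm1* (−0.45) and *Foxa2* (−0.29). The call of *Foxa2* was lost under 12 alternative settings. Over all genes tested 20.7% were higher and 21.0% lower. *Mafa* had a log2 difference of 0.39 and was not called.

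Stress and death genes showed no common direction in members. The counts below stand beside shares of 20.7% higher and 21.0% lower over all genes tested. Among 20 genes of the integrated stress response 4 were higher, with the cystine transporter *Slc7a11* at 1.04, and 7 lower, with *Ddit3* (CHOP) at −0.49. Of 14 heat shock genes 1 was higher and 5 were lower, among them *Hspa8* (−0.74) and *Bag3* (−0.92). Immediate early genes were higher in 5 of 18 cases, as for *Jun* (0.59), *Btg2* (0.63) and *Dusp1* (0.46), and lower for *Jund* (−0.34). The calls of *Jun*, *Dusp1* and *Jund* were lost under 2, 3 and 4 alternatives. Of 24 cell death genes 2 were higher, *Apaf1* (0.63) and *Aifm1* (0.43), which lost the call under 8 and 7 alternatives, and 7 lower, including *Bax* (−0.47), *Bad* (−0.84) and *Bik* (−1.73). Targets of p53 were higher in 2 of 11 cases and lower in 4, with *Sesn1* at 0.60 and *Cdkn1a* at −0.81. The call of *Sesn1* was lost under 5 alternatives. Survival genes were higher in 3 of 9 cases, with *Birc2* at 0.79, and lower in 1, *Bag1* (−0.93). The cytokine-induced list had 6 of 41 genes higher, such as *Stat2* (0.81) and *H2-K1* (0.54), and 15 lower, such as the chemokines *Cxcl1* (−1.97) and *Ccl5* (−1.52). That list changed with the depth of the barcodes: with both classes at 10000 non-mt UMIs or fewer, 11 of 30 genes were higher and 1 lower. Among markers of other cell types, those of macrophages were lower in 6 of 8 cases (*Lyz2* −2.66), their list sum was 0.00554 to 0.0373% in members and 0.0101 to 0.0309% in the comparator, and 0 of 10 tested acinar markers were called (median log2 difference 0.79).

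**Figure D2:**
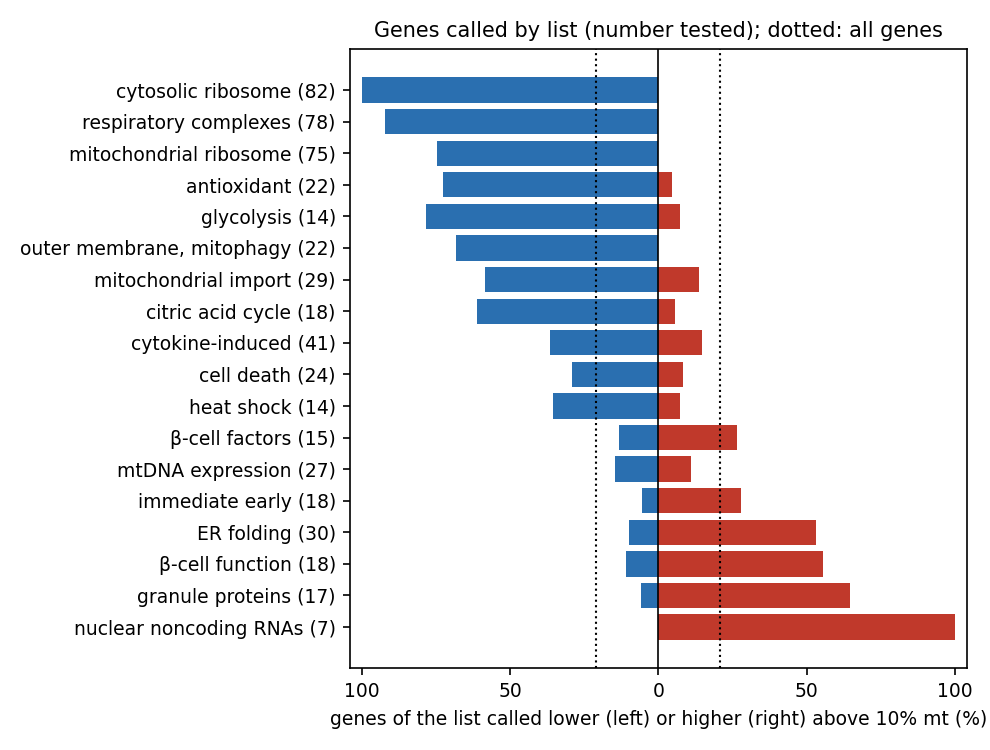
Percentage of the tested genes of each list that were called lower (left, blue) or higher (right, red) above 10% mt than at 10% mt or less, with the number tested in parentheses and dotted lines at the shares for all genes (21.0% lower and 20.7% higher). Cytosolic ribosome genes were lower in 82 of 82 cases and nuclear noncoding RNAs higher in 7 of 7.

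Transcript length ran across these groups. Protein-coding genes outside the ribosomal and respiratory lists were divided into 4 equal bins by the length of their longest annotated transcript, with median lengths of 1672.5, 2922, 4165 and 6511 bases. The share called lower in members was 42.6%, 20.2%, 12% and 4.93% from the shortest to the longest bin, and the share called higher was 7.13%, 16.3%, 25% and 35.7%. The median log2 difference rose from −0.35 to 0.24. Among genes of at least 100 CPM the shares called lower were 71.8% in the shortest bin and 10.1% in the longest. The order of the bins was the same when each barcode was thinned (49.0% of the shortest and 4.03% of the longest lower) and when both classes were held to 10000 non-mt UMIs or fewer (46.6% and 4.68%). Of 410 long noncoding genes tested, 95 were higher (23.2%) and 40 lower (9.76%), against 20.7% and 21.0% of all genes. Length and the gene groups overlap, since ribosomal and respiratory mRNAs are short and *Malat1* and *Meg3* are long, and the part of length in each result was not tested.

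**Figure D3:**
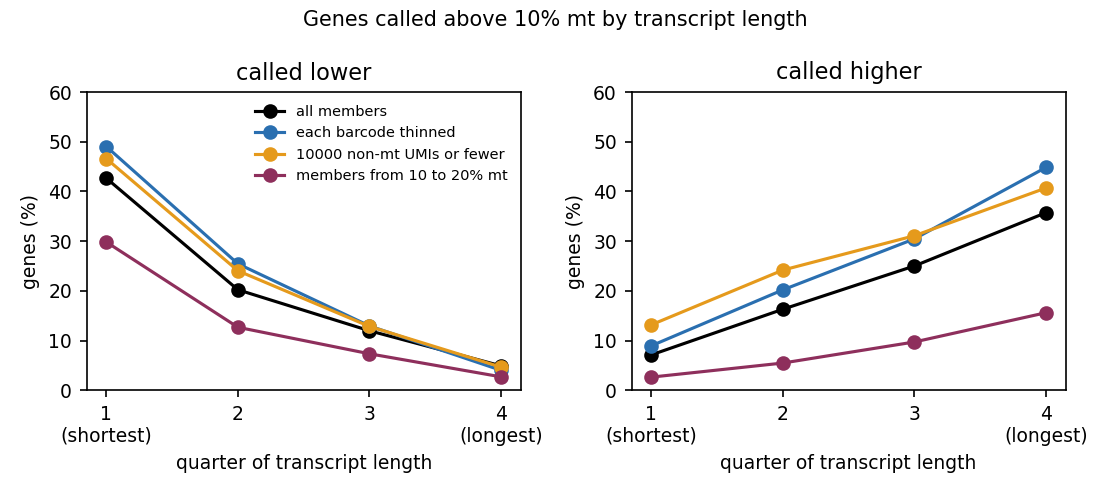
Percentage of protein-coding genes (ribosomal and respiratory lists left out) called lower (left) or higher (right) above 10% mt, in 4 bins of transcript length, for all members, for barcodes thinned to equal depth, for both classes at 10000 non-mt UMIs or fewer, and for members from 10 to 20% mt. For all members the share called lower went from 42.6% in the shortest bin to 4.93% in the longest.

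The sums hide a wide spread between barcodes. The share of cytosolic ribosomal protein mRNA, which the rule did not use, had a median of 3.45% of non-mt, non-hormone UMIs per member and 14.4% per comparator barcode. In 788 members (66.6%) it was below 5%, in 172 (14.5%) from 5 to 10%, and in 223 (18.9%) 10% or more. In the comparator these classes held 58 (0.837%), 482 (6.96%) and 6387 (92.2%) barcodes. The 788 low-ribosome members had a median of 4408.5 UMIs, 27.4% mt, 8.14% *Malat1* and 3.33% ER folding mRNA. The 223 members with a ribosomal share of 10% or more had medians of 15220 UMIs, 11.8% mt, 1.73% *Malat1* and 1.89% ER folding mRNA, so they were deeper and closer to the mt limit. The low-ribosome class made up 64.2 and 51.6% of untreated members (replicates 1 and 2), 81.1 and 64.0% with cytokines, 62.3 and 66.0% with cytokines and NMMA, and 83.8 and 40.2% with NMMA, so replicates of a condition differed as widely as conditions.

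**Figure D4:**
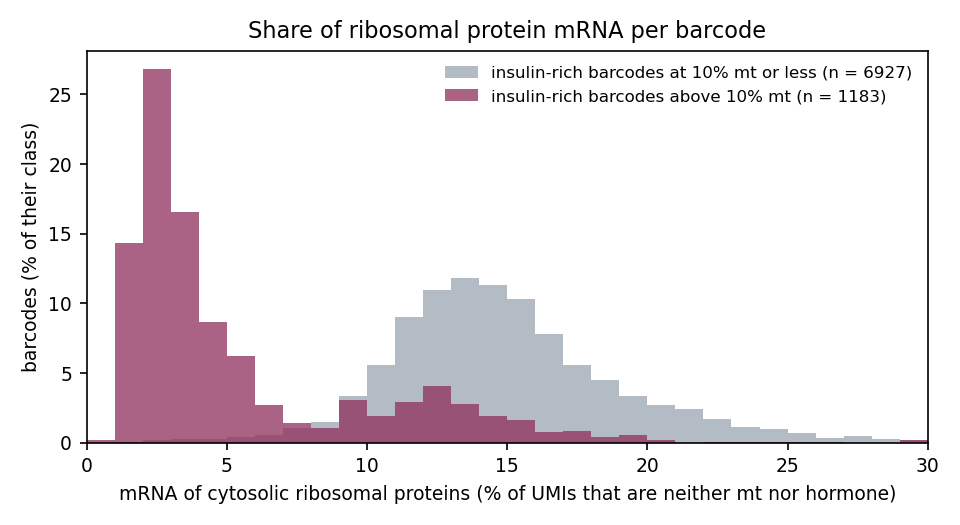
Distribution of the share of cytosolic ribosomal protein mRNA (percentage of UMIs that are neither mt nor hormone) over single barcodes, as a percentage of each class, for members (above 10% mt) and comparator barcodes (10% mt or less). Most members lay below 5% (66.6%) and most comparator barcodes at 10% or more (92.2%), with an overlap between them.

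Ribosomal share went down along the mt scale within the insulin-rich barcodes. Its median was 17.1%, 14.7% and 13.3% at up to 2.5, 2.5 to 5 and 5 to 10% mt, and 5.77%, 2.85% and 2.79% at 10 to 20, 20 to 40 and above 40% mt. The nuclear noncoding list went from 1.89% in the lowest bin through 4.69% at 10 to 20% mt to 10.6% above 40%. ER folding mRNA did not follow mt share throughout, with 2.11% at 5 to 10% mt, 3.13% at 20 to 40% and 1.72% above 40%. Granule mRNA was at 10.1%, 10.2%, 8.45% and 4.84% in the last 4 bins, and insulin at 34.0%, 33.5%, 23.8% and 10.9% of UMIs. Depth fell along the same bins, from a median of 21484 UMIs at 5 to 10% mt to 9448.5, 4229 and 2973 in the 3 member bins.

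Barcodes on either side of the limit had close medians. Just outside, at 9 to 10% mt, 137 comparator barcodes had medians of 15813 UMIs, 12.4% ribosomal and 2.32% nuclear noncoding RNA. Just inside, at 10 to 11% mt, 109 members had 14430 UMIs, 12.1% and 2.69%. Within bins of total UMIs, however, the classes lay apart below 10000 UMIs and came closer above that. Total UMIs include mt UMIs, so non-mt depth was not matched. At 2000 to 5000 UMIs the median mt share was 33.9% in members and 4.69% in the comparator. Among barcodes of 2000 to 5000 UMIs the median ribosomal share was 2.89% in 573 members and 13.5% in 152 comparator barcodes, and from 5000 to 10000 UMIs it was 3.15% in 332 members and 16% in 249. From 10000 to 20000 UMIs the medians were 10.1% (212 members) and 14.4%, and at 20000 UMIs or more 12.9% (66 members) and 14.4%. ER folding mRNA in members was highest from 5000 to 10000 UMIs, at 4.24% against 1.81% in the comparator. Relative to the 5th to 95th percentile range of the comparator of their own library, 79.5% of members lay below it for ribosomal mRNA, 79.1% below it for respiratory mRNA, and 76.5% above it for nuclear noncoding RNA, whereas for granule mRNA 11.3% lay above and 26.0% below.

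The number of different genes was compared at equal depth. With every barcode thinned to 1500 non-mt UMIs, the library means were 632.9 ± 57.5 genes in members and 626.4 ± 29.9 in the comparator (SD, n = 8 libraries), a difference of 6.50 genes, given as a description because gene and UMI number entered the rule. Thinning left out 118 members and 0 comparator barcodes. Members had fewer genes in 3 of 8 libraries, and the sign turned when cytokines replicate 2 was left out (−2.43) or when barcodes were thinned to 4000 UMIs (−50.4).

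The mt RNAs themselves are described without a test, since they chose the members. Within mt UMIs, *mt-Co3* made up a mean of 23.1% in members and 21.0% in the comparator, and *mt-Atp6* 19.3% and 17.5%, both higher in 8 of 8 libraries. *mt-Co1* was at 16.1% and 19.7% and *mt-Nd4* at 5.25% and 5.77%, both lower in 8 of 8 libraries. *mt-Co2* (17.8% and 17.6%) and *mt-Cytb* (7.65% and 7.75%) were close to even. *mt-Nd6*, the light-strand mRNA, was the rarest of those named at 0.0693% and 0.0492%.

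The share of insulin-rich barcodes above 10% mt was next compared between conditions, because both cytokines and nitric oxide act on β-cell mitochondria. In replicate 1 it was 17.0% untreated (346 of the members, 95% Clopper-Pearson interval 15.4 to 18.7), 11.7% with cytokines (159 members, 10.0 to 13.5), 18.9% with cytokines and NMMA (191 members, 16.5 to 21.4) and 17.8% with NMMA (197 members, 15.6 to 20.2). In replicate 2 it was 13% (95 members, 10.6 to 15.6), 8.31% (50 members, 6.23 to 10.8), 9.62% (53 members, 7.29 to 12.4) and 12.9% (92 members, 10.5 to 15.6). These intervals cover counting error only. The share was lowest with cytokines in both replicates. Libraries with cytokines had 12.1% ± 4.72 and those without 15.2% ± 2.61 (SD, n = 4 libraries each), a difference of −3.04 percentage points. It did not exceed the spread over all 8 libraries (exact permutation test, two-sided p = 0.286, smallest possible 0.0286), with −2.11 and −3.96 within replicates 1 and 2. The permutations of this paragraph did not hold the islet pool fixed, so that spread includes the difference between replicates and is not the spread within a pool. With NMMA the share was 14.8% ± 4.33 and without it 12.5% ± 3.6, a difference of 2.30 (exact permutation p = 0.457), with 3.98 and 0.619 within the replicates. The difference for cytokines depended on the limit: it was −0.472 points at a limit of 20% mt and −17.2 points at 5% (exact permutation p = 0.0857).

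Genes that interleukin-1β and interferon-γ are known to induce rose in members, and genes of β-cell identity fell. All 8 member sums entered 1 edgeR fit with condition as the only term. Of 7842 genes tested, 497 were higher (6.34%) and 276 lower (3.52%) with cytokines than untreated, 764 of these 773 with the same sign in both replicates. With cytokines and NMMA 362 were higher (4.62%) and 93 lower (1.19%). The 2 comparisons share the untreated sums.

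*Nos2* had 0 CPM in both untreated and both NMMA sums, 460 and 326 CPM with cytokines (replicates 1 and 2) and 684 and 763 CPM with cytokines and NMMA. Against a floor of 3 counts over the untreated group it was at least 197-fold higher with cytokines and at least 362-fold higher with cytokines and NMMA. *Gbp2*, an interferon-induced GTPase, went from 1.72 and 5.88 CPM to 1628 and 952 CPM with cytokines and 2235 and 2496 CPM with NMMA added, a log2 change of 8.74 with cytokines (SE 0.57, adjusted p = 3.97e-13). *Gbp4* (9.80), *Iigp1* (9.43) and *Gbp9* (8.70) rose alike. The chemokine *Ccl2* had 0 and 2.94 CPM untreated and 369 and 534 CPM with cytokines. *B2m*, the light chain of class I histocompatibility molecules, rose from 415 and 596 to 3031 and 1687 CPM (log2 change 2.23, adjusted p = 7.18e-05), and *H2-D1* (1.68) and *H2-K1* (1.21) rose with it. The call of *H2-K1* with cytokines was lost under 5 alternatives. Of 39 cytokine-induced genes tested, 35 were higher and 0 lower with cytokines (median 4.53). With cytokines and NMMA 37 were higher (median 4.96). This list and those below were chosen with earlier results of these data known, so their counts are a description.

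β-cell identity genes fell in the same sums. *Ucn3* had 357 and 341 CPM untreated, 21.3 and 16.7 with cytokines, 31.6 and 41.5 with cytokines and NMMA, and 318 and 365 with NMMA alone. Its log2 change with cytokines was −4.10 (SE 0.41, adjusted p = 3.71e-09). *Slc2a2* went from 336 and 279 CPM to 23.5 and 8.35 with cytokines (−3.96). *Pdx1* had 244 and 200 CPM untreated, 19.2 and 58.5 with cytokines, and 76.5 and 174 with cytokines and NMMA, and its log2 change with cytokines was −2.91. *Mafa* fell from 926 and 973 to 136 and 418 CPM. In all, 7 of 8 β-cell markers, 7 of 14 β-cell transcription factors (among them *Nkx2-2*, *Isl1* and *Nkx6-1*) and 7 of 17 function genes (such as *Slc30a8* and the fatty acid receptor *Ffar1*) were lower and 0 of each list higher. With cytokines and NMMA 5 of 8, 4 of 14 and 5 of 17 were lower. The calls of *Isl1*, *Nkx6-1* and *Mafa* with cytokines were each lost under 4 alternatives. *G6pc2* changed by −1.97 with cytokines and by −0.50, not called, with cytokines and NMMA. Of the remaining genes with the largest decreases under cytokines, *Kcnk16*, a potassium channel of islets, fell by 3.20 on the log2 scale and *Egr1*, an immediate early gene, by 3.26.

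Some stress genes rose as well. With cytokines 7 of 14 heat shock genes were higher and 0 lower. *Hsph1*, which encodes an Hsp110 chaperone, had 96.5 and 191 CPM untreated, 885 and 1102 with cytokines, 303 and 315 with cytokines and NMMA, and 181 and 171 with NMMA (log2 change with cytokines 2.82, SE 0.35, adjusted p = 3.96e-07). *Dnajb1* (2.89) and *Hsp90aa1* (1.95) were also higher, whereas *Hspa1a* had a log2 change of 3.79 and was not called (adjusted p = 0.252, edgeR). Of 20 antioxidant genes 4 were higher, including *Hmox1*, heme oxygenase 1 (95.7 and 115 CPM to 1251 and 443), and *Sod2* (2.55). Of 19 stress response genes 5 were higher, with *Nupr1* at 2.21 and *Ddit3* at 1.53. Death genes were higher in 4 of 12 cases, with *Gsdmd* (gasdermin D, 3.55) and *Mlkl* (3.53). *Fas* rose at least 30.1-fold over untreated sums at 0, and the survival genes *Birc3* (4.07) and *Tnfaip3* (4.12) rose too. The calls of *Gsdmd*, *Ddit3* and *Tnfaip3* were each lost under 3 alternatives. With cytokines and NMMA 2 heat shock genes were higher. Of the 82 ribosomal protein genes 1 was lower with cytokines, *Rpl35* (−1.19, lost under 8 alternatives), and the list median was −0.59. *Malat1* had a log2 change of 0.90 and was not called (adjusted p = 0.220), and *Neat1* rose by 1.25, a call lost under 6 alternatives.

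**Figure D5:**
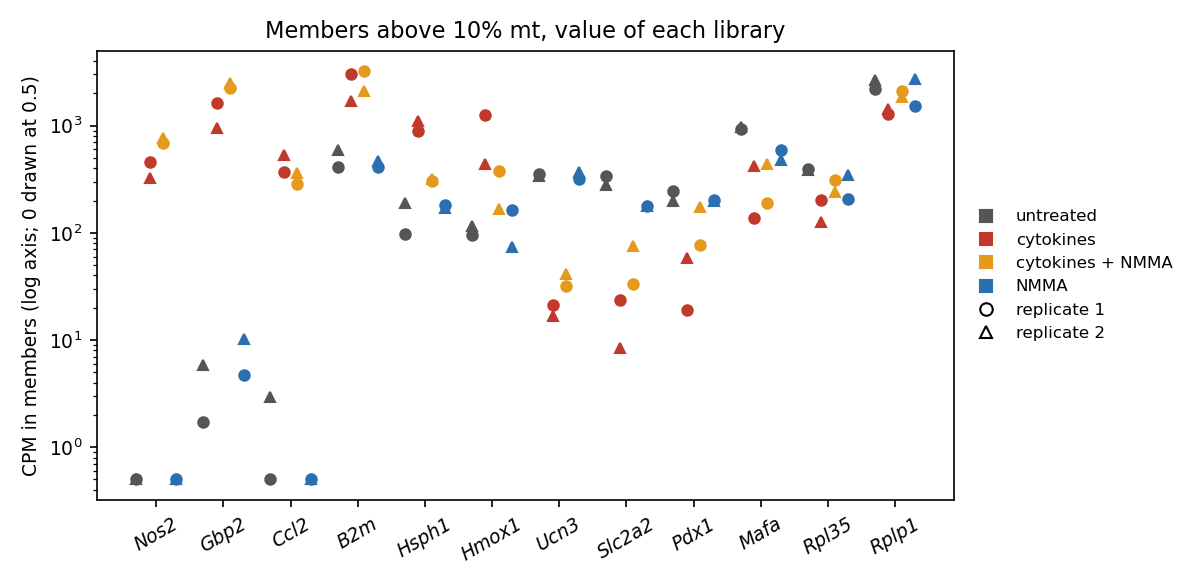
CPM of 12 genes in the summed members of each library on a log axis (a value of 0 is drawn at 0.5), coloured by condition, with circles for replicate 1 and triangles for replicate 2. *Nos2*, *Gbp2* and *Ccl2* lay at 10.2 CPM or below without cytokines and at 287 CPM or above with them, while *Ucn3* and *Slc2a2* lay lower with cytokines than without in every library.

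Addition of NMMA to cytokines was tested directly. Between cytokines and cytokines with NMMA 9 genes were called (0.115%), and 633 of 7842 had an unadjusted p below 0.05. *Tnfrsf12a*, the receptor of TWEAK (1.85), and *Hsph1* (1.68, adjusted p = 0.0316) were higher without NMMA. *Egr1* (−2.86, adjusted p = 0.00829), *Fos* (−2.23), *Ckap4* (−2.51), *Steap4* (−2.34) and *Cldn3* (−2.32) were lower. *Egr1* had 19.2 and 41.8 CPM with cytokines, 126 and 282 with cytokines and NMMA, and 198 and 294 untreated. Each of these 7 genes lost the call under at least 3 alternatives. With the replicate number as a block, which pairs libraries of 1 islet pool, 30 genes were called. NMMA alone changed 0 genes in members by edgeR and 0 by DESeq2, with 199 at an unadjusted p below 0.05 and 3 called with the replicate block.

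Whether members and comparator β-cells answered cytokines to a different degree was tested as an interaction over all 16 sums. Of 13070 genes, 11 had a higher (0.0842%) and 105 a lower (0.803%) response in members, and 1296 had an unadjusted p below 0.05. Of 41 cytokine-induced genes 0 were among them, with median responses of 5.12 and 4.19 on the log2 scale in members (replicates 1 and 2) and 4.69 and 4.22 in the comparator. Of 82 ribosomal protein genes 42 were lower, with median responses of −0.41 and −1.0 in members against 0.61 and 0.62 in the comparator. *Rpl35* is an example (interaction −1.71, SE 0.34, adjusted p = 0.000606). The ribosomal calls depended on scaling, with 1 left when total UMIs were used and 75 by DESeq2, and on the block, with 1 left under a replicate block in place of the library block. *Mafa* fell less in members, from 854 and 883 to 125 and 345 CPM, than in the comparator, where it went from 1166 and 885 to 74.2 and 86.9 CPM (interaction 1.56, adjusted p = 0.00242), but this call was lost under 6 alternatives, among them the replicate block, 10000 non-mt UMIs or fewer, and leaving out untreated replicate 1 or cytokines replicate 2. The number of calls was unstable: it was 6 with a replicate block, 7 with both classes at 10000 non-mt UMIs or fewer, 1 without untreated replicate 1, 4 without cytokines replicate 2 and 220 without NMMA replicate 2.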

How the data were processed

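The deposited files hold UMI counts per gene and barcode for 8 libraries, made by the authors with Cell Ranger (matrix headers 3.0.0 for replicate 1 and 6.0.0 for replicate 2, build mm10 per the processing notes). The 30406 gene IDs shared by both annotations were used. Members and gene lists were chosen with earlier results of these data known. UMIs were summed per class and library without mt and hormone genes, and tested with edgeR 4.0.16 (filterByExpr, TMM, robust quasi-likelihood, Benjamini-Hochberg) or by exact permutation over libraries. The tests were tried on simulated data. DESeq2 1.42.0, other scalings, filters, limits and thinning were alternatives. Doublets were called with Scrublet (scanpy 1.11.5) and kept.

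Genes named are the 12 largest called changes each way between classes, the 8 for cytokines and the 5 for other contrasts, at a mean of 50 CPM or more and 1 sign in all libraries or both replicates, the 5 smallest adjusted p of the interaction, and examples of lists. Same-numbered libraries shared an islet pool per the methods, and their deviations correlated at 0.141 to 0.427 over 6 pairs of conditions. Positions and transcript lengths are from GENCODE M21 (GRCm38). The counting kit version differs between sources and is not given here. The study describes the 2 replicates as independent, and libraries of 1 replicate share a pool.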

Additional observations from a re-analysis of the deposited data

Results flagged for a closer look

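The cytokine response differed between members and comparator barcodes by the interaction test for these genes, of which the 5 with the smallest adjusted p are given. The pancreatic protease genes *Try4*, *Cela3b*, *Prss2* and *Try5* had log2 differences of −5.54, −3.97, −3.36 and −3.88, members minus comparator. Acinar markers made up 0.0805% of the comparator sum of cytokines replicate 2 and 0.000126% of that of untreated replicate 2, and 0.00158% and 0 of the member sums. Their part in these differences was not tested. *Hspa1a*, the inducible Hsp70, differed by 2.17. It had 38.2 and 408 CPM in untreated and 1278 and 4300 CPM in cytokine-treated members (replicates 1 and 2), and 105 and 373, then 674 and 886 CPM in the comparator, so within a condition replicates differed widely. Each of the 5 calls was lost under 6 or 7 alternatives, in every case including the replicate block in place of the library block and leaving out untreated replicate 1 or cytokines replicate 2.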

How the results depend on the processing

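The member sums of replicate 2 rest on 50 to 95 barcodes, which limits every comparison of conditions. Genes called between classes (4741) fell to 2521 for members at 10 to 20% mt, 2796 with thinning and 1870 at 10000 non-mt UMIs or fewer, where fewer UMIs were summed, and were 4040 to 4761 without 1 library. Cytokine calls in members (773) were 346 by DESeq2, 224 above 20% mt, 204 with thinning and 167 to 949 without 1 library, the lowest without cytokines replicate 1. Calls for cytokines with NMMA (455) were 271, 194, 177 and 217 to 586. NMMA calls (0) were 1 with no filter, 1 at a UMI minimum of 5000, 3 with a replicate block and 0 to 3 without 1 library. For cytokines against cytokines with NMMA (9 calls) the counts were 2 by DESeq2, 29 with no filter, 1 above 20% mt, 3 at 10 to 20% mt, 1 with thinning, 30 with a replicate block and 0 to 26 without 1 library.

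The 116 interaction calls were 58 with DESeq2 size factors, 27 with total UMIs, 47 with no filter, 11 above 20% mt, 4 at 10 to 20% mt, 3 at a UMI minimum of 5000, 4 with thinning, 27 with hormone genes kept, 7 at 10000 non-mt UMIs or fewer, 6 with the replicate block in place of the library block, and 1 to 220 without 1 library. The replicate block gave 1053 cytokine calls and 670 with NMMA added. Genes detected at equal depth reversed at 4000 UMIs (−50.4), without hormone genes (−23.5) and without cytokines replicate 2 (−2.43, range to 15.3). Share differences ran from −5.29 to −1.76 for cytokines and 0.905 to 4.03 for NMMA without 1 library. Of the 24 genes with the largest class differences 3 lost the call under some setting, as did 4 of the 16 with the largest cytokine changes, with no change of direction. Losses were more frequent in examples of lists. There 27 genes lost the call between classes, 24 for cytokines and 17 for cytokines with NMMA. Among list genes, *Birc3* turned to −0.048 at 10 to 20% mt, and at 10000 non-mt UMIs or fewer *Txnip* turned to −0.014 and the interaction of *Ddit3* to 0.10, none of them called there. The causes were not tested.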
